A study of Mus musculus with 9 samples.

Results

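The cytosolic ribosomal protein genes of the mouse cochlea were described here from strand-specific total RNA sequencing. Members were the genes of the second deposited table named Rpl or Rps with a number, or Rplp0, Rplp1, Rplp2 or Rpsa, with a mean of at least 10 TPM over its 6 libraries. Kinases and pseudogene symbols were left out. TPM is an abundance per transcript length and library total, so levels can be compared between genes within a library. Of 25579 symbols in that table, 81 had such a name and 80 passed the limit, 48 of the large subunit and 32 of the small subunit. The members were thus chosen by their level over these libraries, and their levels are given as a description; all 80 had at least 10 TPM in both group means and all 80 were tested. The member nearest above the limit was Rps27l with a mean of 17.3 TPM, followed by Rps28 with 22.6 and Rps26 with 37.5 TPM. The single gene below it was Rpl3l, the muscle form of Rpl3, with 0.159 TPM.

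The tissue was the cochlear membranous labyrinth at postnatal day 28, in 3 groups of 3 libraries labelled as biological replicates. WT mice carried the wild-type Mpzl2 gene. Homozygous mice carried a humanized MPZL2 gene with the nonsense allele Q74X on both chromosomes (hMPZL2Q74X/Q74X). Treated mice had that same homozygous genotype and were injected at postnatal day 2, by way of the round window membrane, with AAV-ie-ABE8eWQ-SpRY:sgRNA3, an adeno-associated virus that carries an adenine base editor with its guide. The labels name no injection for the homozygous and WT groups, so vector, injection and editing cannot be told apart. They do not say whether tissue of several animals was pooled, and the p-values measure the spread between these libraries.

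Ribosomal proteins are joined to ribosomal RNA in a small subunit that decodes the message and a large subunit that makes the peptide bond. Each cytosolic ribosome holds about a single copy of most of these proteins. Their messages begin with a C followed by a run of pyrimidines, the terminal oligopyrimidine (TOP) tract, through which mTOR signalling sets their translation together. Surplus ribosomal proteins are usually degraded, and mutations of single genes cause tissue-specific disease, such as Diamond-Blackfan anaemia.

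RefSeq start-site sequence (build GRCm38.p6, not the build of the deposited values) was matched by symbol for 60 of the 80 members. A C followed by at least 7 pyrimidines lay between 20 bases before and 25 bases after the annotated start, on the coding strand, in 32 of the 60, or 53.3%, against 15.9% of the 27025 symbols with a sequence. In 16 members the tract began within 5 bases of the annotated start. Of these, the windows of the 4 members with the lowest and the 4 with the highest fold change in treated libraries are shown to let both ends be compared. Capitals mark the tract.
Rpl38: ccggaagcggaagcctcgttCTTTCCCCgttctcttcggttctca
Rpl22l1: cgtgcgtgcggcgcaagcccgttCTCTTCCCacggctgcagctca
Rps27: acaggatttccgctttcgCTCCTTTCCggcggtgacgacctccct
Rps24: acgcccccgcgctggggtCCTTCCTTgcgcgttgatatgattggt
Rpl18: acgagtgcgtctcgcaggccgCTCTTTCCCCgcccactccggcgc
Rps10: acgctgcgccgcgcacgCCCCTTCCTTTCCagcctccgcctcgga
Rpl27a: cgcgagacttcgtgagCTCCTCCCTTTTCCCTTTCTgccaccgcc
Rpl13a: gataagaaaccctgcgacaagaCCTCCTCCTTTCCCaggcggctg

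The first 4 windows belong to members with fold changes from -1.31 to -0.87 on the log2 scale and the last 4 to members with 0.43 to 0.56. They lie at chr11:114668560-114668604 on the plus strand for Rpl38, chr3:28805488-28805532 on the plus strand for Rpl22l1, chr3:90213624-90213668 on the minus strand for Rps27 and chr14:24490658-24490702 on the plus strand for Rps24. Those of Rpl18 (chr7:45718051-45718095, plus strand), Rps10 (chr17:27635220-27635264, minus strand), Rpl27a (chr7:109519175-109519219, plus strand) and Rpl13a (chr7:45128721-45128765, minus strand) follow. A tract was found in 17 of 33 members with a negative fold change and in 15 of 27 with a positive one. The median fold change was -0.20 with a tract and -0.28 without, so members on both sides carried these letters at a like share. The ETS letters CCGGAAG, searched on both strands of the 300 bases around the start, were in 41.7% of members and 9.93% of all symbols, in 13 of 33 negative and 12 of 27 positive members. Their reverse strand reads as part of a pyrimidine run and can overlap the tract.

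Treated libraries 1 and 2 were nearly identical and were averaged to 1 sample before any test, so the treated group had n = 2 against n = 3. For genes at 1 to 5 TPM their median absolute log2 difference was 0.0464, against 0.361 to 0.437 between homozygous libraries and 0.931 to 0.934 between either of them and treated library 3. Each library summed to between 995747 and 996703 TPM, a scaled unit from which the sequencing depth cannot be read. Of 18 cochlear markers, 17 reached 1 TPM in every homozygous library and 17 in every treated library. Their summed level was 10310 to 14078 TPM in homozygous and 6941 to 8555 TPM in treated libraries. Coch had 7698, 7639 and 6110 against 4141, 4004 and 3735 TPM, and Otos had 3476, 3126 and 2384 against 808, 780 and 1095 TPM. The fold change was negative for 5 of the 18 and positive for 13, with a median of 0.67. Of these markers 1 was called lower (0.965% of all tested genes were) and 1 higher (3.44% of all tested genes were). Forebrain neuron markers summed to 177 to 215 TPM in homozygous libraries, to 1469 and 1446 TPM in treated libraries 1 and 2 and to 197 TPM in treated library 3. Of that list Neurod6 was listed at 0 in every homozygous library, and Neurod2, Neurod6 and Tbr1 were listed at 0 in treated library 3. The share of mitochondrially encoded genes was 10.7% to 13.6% of TPM in homozygous libraries and 2.17%, 2.22% and 6.16% in treated libraries 1, 2 and 3. Of the myeloid markers 6 of 8 and of the lymphocyte markers 4 of 6 tested were called higher in treated libraries (3.44% of all tested genes were), with sums of 84.1 to 123 against 433 to 473 TPM and 4.87 to 14.2 against 67.5 to 116 TPM. Summed levels of the bone markers were 270 to 1074 TPM in homozygous and 115 to 149 TPM in treated libraries. Astrocyte and oligodendrocyte markers summed to 358 to 972 TPM in homozygous libraries and to 1442, 1449 and 255 TPM in treated libraries 1, 2 and 3. Most of the sum in treated libraries 1 and 2 was Slc1a2, with 1229 and 1236 TPM. The fold change was negative for 5 of the 7 tested and positive for 2, with a median of -1.61, and 1 was called lower. Mobp, Mog and Mag were lower in every treated library than in any homozygous one, and Slc1a2 and Aldh1l1 were higher. The 8 nuclear RNAs of a list headed by Malat1 summed to 24504 to 28621 TPM in homozygous and 10493 to 12659 TPM in treated libraries. The part of these differences in the results that follow was not tested. In whole tissue, fewer cells of a type and less RNA per cell cannot be told apart.

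The 80 genes together made up 2.12%, 2.46% and 2.12% of TPM in homozygous libraries 1, 2 and 3. Their share was 1.96% and 1.99% in treated libraries 1 and 2 and 2.90% in treated library 3. Treated libraries therefore stood on both sides of the homozygous range, with the near-identical pair just below it and treated library 3 above it. With mitochondrially encoded genes removed from the total, the shares were 2.45% to 2.75% in homozygous libraries and 2.00%, 2.03% and 3.09% in treated ones. The ratio of summed large to small subunit TPM stayed between 1.72 and 1.89 in the 6 libraries. A pair of abundant members took up more of the family's total in treated libraries. Rpl13a and Rplp1 held 15.2% to 16.1% of it in homozygous libraries and 20.03% to 21.2% in treated ones.

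**Figure D1:**
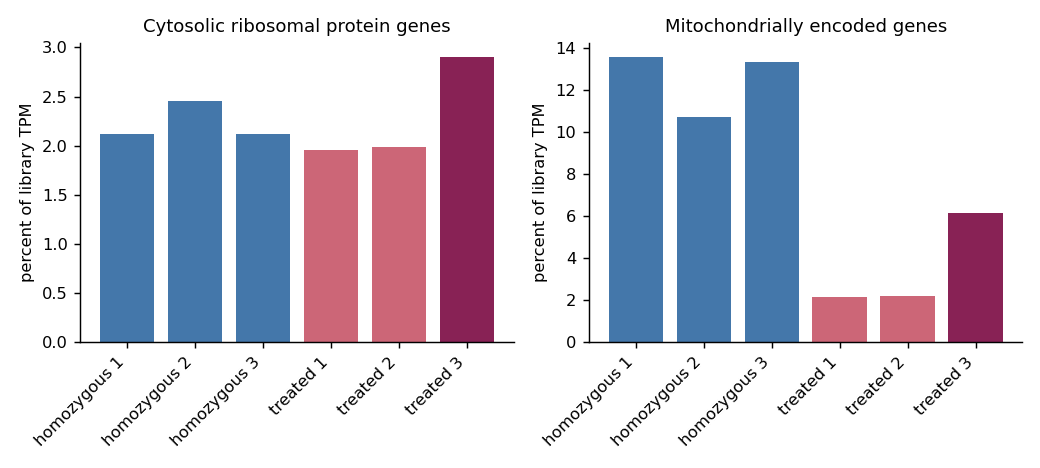
Bars give, for each of the 6 libraries, the percent of library TPM in the 80 cytosolic ribosomal protein genes (left) and in mitochondrially encoded genes (right). The ribosomal protein share of treated library 3, 2.90%, is the highest and those of treated libraries 1 and 2 are the lowest, while the mitochondrial share is below 10.7% in all 3 treated libraries.

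The comparison of treated with homozygous libraries asks what changes in the cochlea of the Q74X mouse after the vector. Within the family, levels moved both ways: the messages of the shortest proteins tended to be lower and those of the longest higher, and few members passed the test. limma on log2(TPM + 1), adjusted over 17102 genes, called 2 of the 80 lower (0.965% of all tested genes were) and 2 higher (3.44% of all tested genes were), 4 in all against 4.41% of all tested genes. At an unadjusted p under 0.05, 22 members were lower (7.92% of all tested genes were) and 12 higher (18.8% of all tested genes were). The fold change was negative for 45 members and positive for 35, and ranged from -2.14 to 1.37 on the log2 scale. Its median over the members was -0.25, against 0.20 over all tested genes, but it was 0.16 among the members with a mean of at least 100 TPM. The large and small subunits had medians of -0.24 and -0.28. All treated samples lay below every homozygous library in 28 members, or 35% (15.8% of all tested genes did), and above every one in 15, or 18.8% (29.2% of all tested genes did). With both samples taken apart, the median was -0.41 for treated libraries 1 and 2 and -0.0046 for treated library 3.

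**Figure D2:**
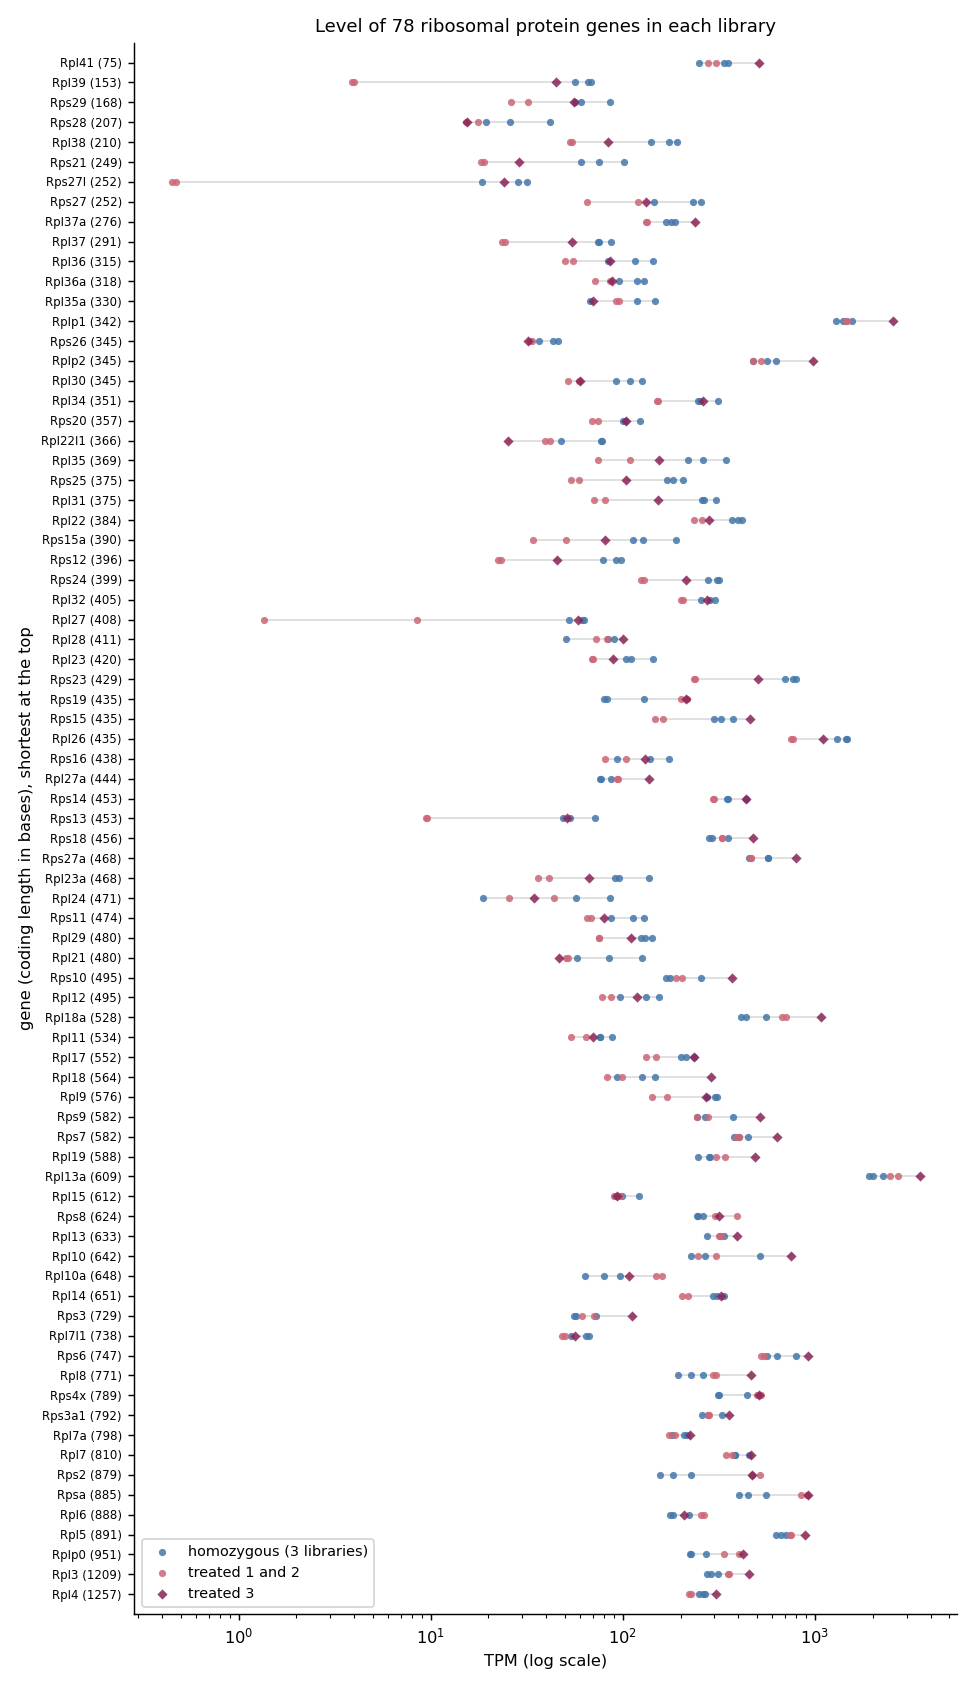
Level in TPM (log axis) of 78 of the 80 members in the 6 libraries, 1 gene per row, ordered by coding length in bases with the shortest at the top. Points of treated libraries lie to the left of the homozygous points in many of the upper rows and to the right in many of the lower rows, and Rps27l, Rpl39, Rpl27 and Rps13 have treated libraries 1 and 2 far to the left.

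Among small subunit members, Rps21, a protein of the platform that takes part in small subunit maturation, had 101, 75.1 and 60.6 TPM in homozygous libraries and 18.9, 18.3 and 28.7 TPM in treated libraries 1, 2 and 3. Every treated library was less than the lowest homozygous one, and Rps21 fell by 1.70 on the log2 scale (SE 0.30, limma adjusted p = 0.0355). Rps2, which lines the channel where the message enters, had 155, 227 and 182 TPM against 471, 517 and 469 TPM. All 3 treated libraries exceeded the homozygous range, and Rps2 rose with a log2 fold change of 1.37 (SE 0.21, limma adjusted p = 0.0254). These calls rest on few libraries: Rps21 was not called without any 1 of the homozygous libraries (adjusted p 0.0856 to 0.168), and Rps2 not without homozygous library 1 or 3 (0.139 and 0.134). With treated library 3 alone, or with no filter on low values, neither they nor Rpl38 were called (adjusted p 0.0736 to 0.0866 and 0.0769 to 0.1003). Other scalings, by median-of-ratios size factors and with TPM rescaled without mitochondrially encoded genes, kept these 3 calls.

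Rpl38, the large subunit member that passed the test, is known from the Tail-short mouse, in which its loss alters the skeleton and the middle ear. Its level was 192, 173 and 141 TPM in homozygous libraries and 54.3, 52.9 and 83.4 TPM in treated libraries. The groups did not overlap, and Rpl38 fell by 1.31 on the log2 scale (SE 0.25, limma adjusted p = 0.0418). Without 1 homozygous library the adjusted p was 0.0996 to 0.195. Its protein is 70 residues long by the gene annotation, and that of Rps21 has 83, whereas that of Rps2 has 293.

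The lowest fold changes belonged to Rps27l and Rpl39, and neither passed the test. Rps27l, a p53-inducible copy of Rps27, had 18.6, 28.4 and 31.8 TPM in homozygous libraries, 0.475 and 0.450 TPM in treated libraries 1 and 2 and 23.9 TPM in treated library 3 (log2 fold change -2.14, SE 1.08, limma adjusted p = 0.256). Rpl39, a small protein at the exit tunnel of the large subunit, had 65.8, 68.7 and 56.6 TPM against 3.97, 3.91 and 45.1 TPM (log2 fold change -2.10, SE 0.84, limma adjusted p = 0.172). In both, the near-identical pair was far below the other 4 libraries. Chosen after their values were seen, 4 members had treated libraries 1 and 2 under 25% of the lowest homozygous library. Besides these they were Rpl27, with 52.4, 61.4 and 62.5 against 1.36, 8.44 and 58.5 TPM, and Rps13, with 72.1, 53.1 and 49.0 against 9.55, 9.41 and 51.1 TPM. Treated library 3 was within the homozygous range for 3 of the 4 and under it for Rpl39, and none of the 4 passed the test.

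**Figure D3:**
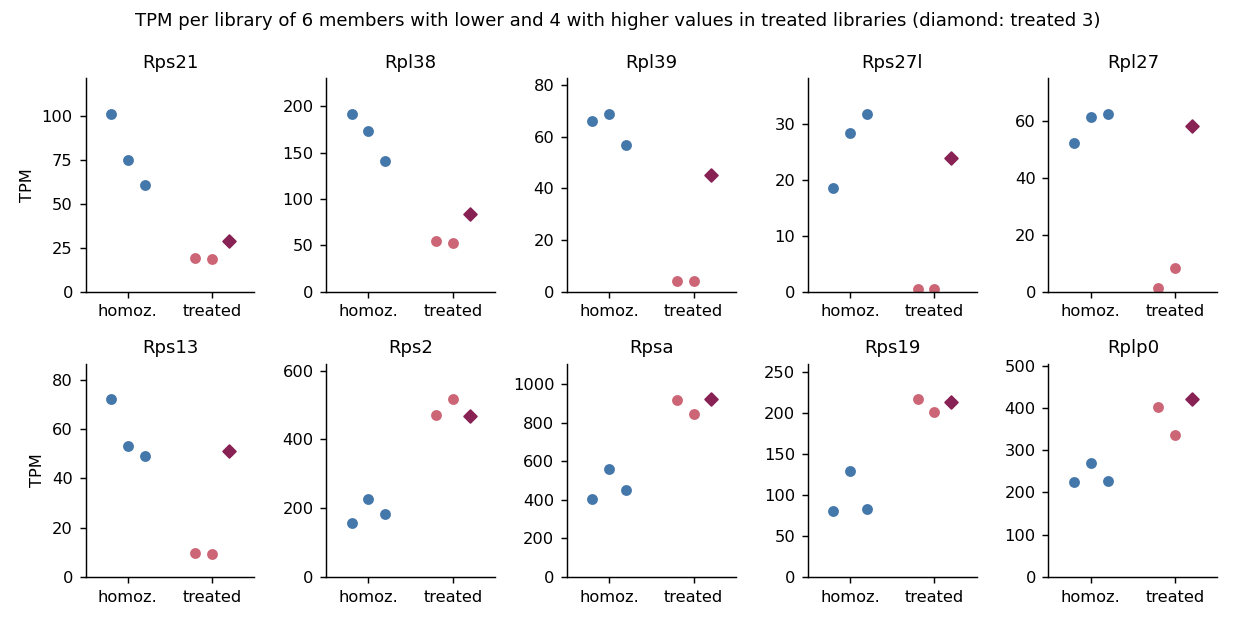
TPM (linear axis from 0) of 6 members with lower and 4 members with higher values in treated libraries, 1 point per library, homozygous on the left and treated on the right, with treated library 3 as a diamond. In Rps21, Rpl38, Rps2, Rpsa, Rps19 and Rplp0 all 3 treated libraries are on 1 side of the homozygous ones, while in Rps27l, Rpl27 and Rps13 treated library 3 is inside the homozygous range.

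The P stalk of the large subunit, which recruits the elongation factors, is built from Rplp0, Rplp1 and Rplp2. Rplp0, its base, had 224, 270 and 227 TPM in homozygous libraries and 402, 336 and 421 TPM in treated libraries, without overlap (log2 fold change 0.71, SE 0.18, limma adjusted p = 0.0697). Rplp1 had 1283, 1564 and 1398 TPM against 1444, 1469 and 2566 TPM (0.45, SE 0.30, adjusted p = 0.383). Rplp2 had 563, 631 and 475 TPM against 523, 475 and 977 TPM (0.34, SE 0.31, adjusted p = 0.531). In these 2 acidic proteins treated libraries 1 and 2 were within the homozygous range or at its edge, and treated library 3 was above it. The sign of Rplp2 turned without treated library 3.

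The most abundant large subunit messages in homozygous libraries, beside Rplp1 and Rplp2, were those of Rpl13a, Rpl26 and Rpl5, and none of the 3 passed the test. Rpl13a, which also serves in translational control during inflammation, had 1922, 2262 and 2001 TPM against 2460, 2721 and 3527 TPM, without overlap (log2 fold change 0.56, SE 0.27, limma adjusted p = 0.246). Rpl26 had 1449, 1462 and 1298 TPM against 753, 772 and 1096 TPM, without overlap in the other direction (-0.61, SE 0.24, adjusted p = 0.168). Rpl5 had 626, 706 and 667 TPM against 740, 750 and 883 TPM, also without overlap (0.29, SE 0.19, adjusted p = 0.383). Rpl11 is the partner of Rpl5 in the 5S RNA particle that binds Mdm2 and so links ribosome assembly to p53. Rpl11 had 87.9, 76.1 and 75.8 TPM against 64.2, 53.5 and 70.4 TPM (-0.31, SE 0.19, adjusted p = 0.336). The 2 partners thus had fold changes of opposite sign, each with an adjusted p above the threshold of 0.05.

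Of the most abundant small subunit messages, Rps23, a protein of the decoding centre, had 701, 767 and 801 TPM against 234, 239 and 507 TPM (log2 fold change -1.12, SE 0.33, limma adjusted p = 0.0943). Its treated libraries were below every homozygous one, with treated library 3 the nearest. Rps6, the substrate of S6 kinase, had 632, 797 and 562 TPM against 524, 542 and 925 TPM (0.10, SE 0.29, adjusted p = 0.858). Rps27a, whose protein is made as a fusion with ubiquitin, had 456, 573 and 572 TPM against 467, 466 and 801 TPM (0.20, SE 0.28, adjusted p = 0.670). Rps6 had treated libraries on both sides of the homozygous range, and Rps27a had the pair inside it and treated library 3 above. The sign of Rps6 turned under both other scalings of the libraries and without treated library 3, and that of Rps27a without treated library 3. Rps23 passed the test without treated library 3 (adjusted p = 0.0144), in a fit that called 17.4% of all tested genes.

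Rpsa, also known as the laminin receptor, had 402, 558 and 449 TPM in homozygous libraries and 915, 846 and 921 TPM in treated libraries. The groups were far apart, but the adjusted p was just over the threshold (log2 fold change 0.95, SE 0.21, limma adjusted p = 0.0560). Rps19, the gene most often mutated in Diamond-Blackfan anaemia, had 80.1, 130 and 82.7 TPM against 217, 202 and 214 TPM, again without overlap (1.15, SE 0.25, adjusted p = 0.0542). Rps26, another gene of that disease, had 46.1, 43.5 and 36.5 TPM against 33.6, 33.1 and 32.1 TPM (-0.35, SE 0.21, adjusted p = 0.333). Its treated libraries were all below the homozygous ones, with a small difference. Rps28, a near neighbour of the limit of 10 TPM, had 41.7, 26.01 and 19.5 TPM against 15.2, 17.7 and 15.5 TPM (-0.76, SE 0.35, adjusted p = 0.225).

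Among parent and paralogue pairs no member passed the test. Rpl22, which represses its paralogue Rpl22l1, had 372, 416 and 396 TPM against 257, 236 and 282 TPM (log2 fold change -0.58, SE 0.17, limma adjusted p = 0.0962). Rpl22l1 was also below every homozygous library, with 76.6, 47.9 and 78.4 TPM against 41.7, 39.6 and 25.2 TPM (-1.02, SE 0.31, adjusted p = 0.105). Rps27, beside its paralogue Rps27l above, had 233, 255 and 145 TPM against 65.1, 120.7 and 133 TPM (-0.88, SE 0.29, adjusted p = 0.125). The related symbol Rps27rt, outside the rule, had 0, 0 and 49.98 TPM in homozygous libraries and 0 in every treated one. Whether reads were divided between Rps27 and Rps27rt was not tested. Rpl7 and Rpl7l1, the latter a factor of large subunit assembly, had fold changes of 0.003 and -0.22 (adjusted p = 0.992 and 0.506). Rpl3, at the peptidyl transferase centre, had 273, 313 and 287 TPM against 355, 352 and 452 TPM (0.46, SE 0.19, adjusted p = 0.178), while Rpl3l was below 0.361 TPM in every library. Rpl10, which joins late in large subunit assembly, had a fold change of 0.53 (SE 0.51, adjusted p = 0.541) and X-linked Rps4x one of 0.54 (SE 0.21, adjusted p = 0.171). The sign of Rpl10 turned without treated library 3. The smallest differences were those of Rpl7a, Rpl7 and Rpl37a, with 0.0026, 0.0033 and 0.0039 on the log2 scale, and negative under both other scalings. Near-identical processed pseudogenes exist for many members, and reads shared with them make single levels uncertain. Pseudogene symbols in the table summed to 126 to 365 TPM per library, against 19486 to 28928 TPM for the members. Most of that sum was Rpl10-ps3, with 215, 168 and 214 TPM in homozygous and 331, 307 and 86.4 TPM in treated libraries. Rpl10 itself had 225, 519 and 269 against 246, 307 and 751 TPM. Rplp2-ps1 had 3.52, 3.47 and 2.11 against 15.5, 16.4 and 23.2 TPM (log2 fold change 2.35, limma adjusted p = 0.0314). The part of shared reads in the fold changes of Rpl10 and Rplp2 was not tested.

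The order of the fold changes followed the length of the coding sequence, a pattern looked for after the values had been seen. Coding lengths, from the GENCODE annotation of GRCm38, ran from 75 bases in Rpl41 to 1257 in Rpl4. Across the 80 members, which share the same libraries, Spearman's rank correlation of fold change with coding length was 0.638. The rank correlation was 0.639 for treated libraries 1 and 2 and 0.560 for treated library 3, so both treated samples showed it. Each homozygous library against the other 2 gave -0.288, 0.164 and 0.173. The members gave 0.547 over the 48 large subunit members and 0.768 over the 32 small subunit members. The rank correlation with the length of the whole transcript was 0.400, with GC content 0.364 and with exon number 0.455, so coding length had the highest of the 4.

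**Figure D4:**
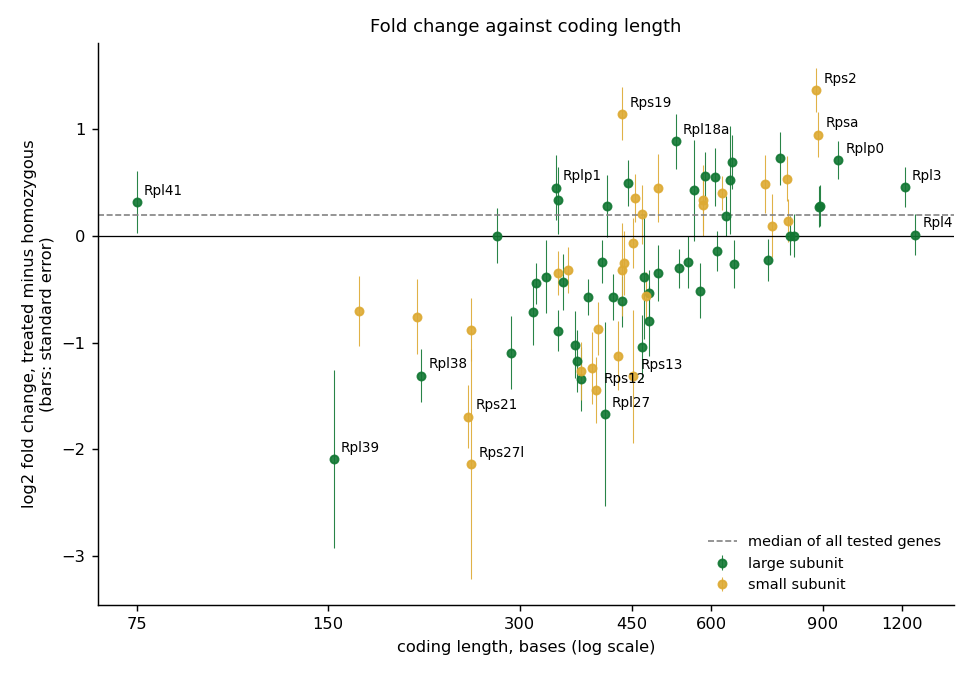
Log2 fold change of 78 of the 80 members, treated minus homozygous, with its standard error, against coding length in bases (log axis), coloured by subunit, with the median of all tested genes as a dashed line. Rps27l, Rpl39, Rps21 and Rpl38 lie low at the short end, Rps2, Rpsa and Rplp0 lie high at the long end, and Rpl41 and Rps19 stand above other members of their length.

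In the 10 members of at most 300 bases the median fold change was -0.99, and 7, or 70%, had all treated samples below every homozygous library, against 29.8% of other tested genes of that length and 41.3% of those at 50 TPM or more in homozygous libraries. In the 28 members of 301 to 450 bases the median was -0.58, and 15, or 53.6%, were below, against 24.3% and 40.7% of these other genes. In the 19 of 451 to 600 bases it was -0.25, with 6 below (31.6%, against 17.1% and 27.5%) and 2 above (10.5%, against 24.4% and 14.8%). In the 23 members over 600 bases it was 0.40, with 0 below (against 14.6% and 25.9%) and 11 above (47.8%, against 32.7% and 24.5%). Both members called lower were in the shortest class and both called higher in the longest. The same classes gave medians of -1.39, -0.78, -0.40 and 0.16 for treated libraries 1 and 2, and of -0.50, -0.37, 0.13 and 0.43 for treated library 3. Departures, chosen after their values were seen, were Rpl41 in the shortest class with a fold change of 0.32 and Rps19 in the second with 1.15. Rpl41 had -0.08 in treated libraries 1 and 2 and 0.72 in treated library 3.

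**Figure D5:**
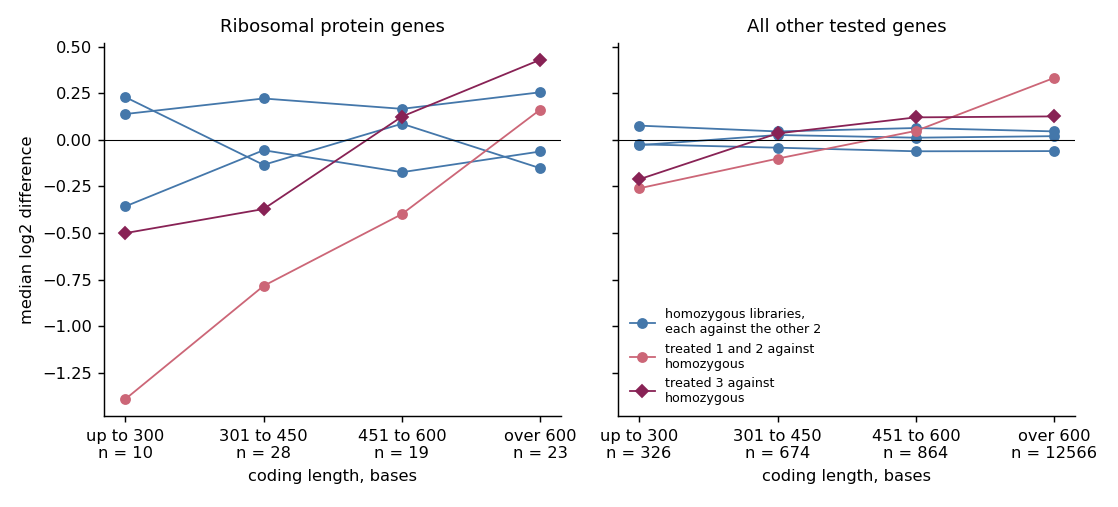
Median log2 difference by class of coding length (4 classes, number of genes under each) for the ribosomal protein genes (left) and all other tested genes (right). Lines of treated libraries 1 and 2 and of treated library 3 climb from -1.39 to 0.16 and from -0.50 to 0.43 in the members, more steeply than in other genes, while the lines of each homozygous library against the other 2 stay between -0.36 and 0.26.

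The rank correlation with coding length was lower in the other gene sets described. Over 14431 other tested genes with a known coding length, the rank correlation with coding length was 0.090 and with GC content 0.398. Restricted to the 6379 no longer than the longest member, the rank correlation with coding length was 0.133, and over the 3835 at 50 TPM or more in homozygous libraries it was 0.142. Class medians of all other genes ran from -0.22 through -0.03 and 0.06 to 0.24, and those of the other genes at 50 TPM or more were -0.53, -0.29, -0.12 and -0.02. For the 73 mitochondrial ribosomal proteins the rank correlation was 0.304, and for 72 nuclear-encoded respiratory chain genes it was 0.460. Of the mitochondrial ribosomal proteins 2 of 73 were called lower and 0 higher (median -0.18). Of the respiratory chain genes 16 of 75 were called lower and 0 higher (median -0.61). Over all tested genes 0.965% were called lower and 3.44% higher.

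Within a library, the ranking of the members by level changed more between groups than between homozygous libraries. Spearman's rank correlation of member levels was 0.959 to 0.962 between homozygous libraries and 0.828 to 0.928 between homozygous and treated ones. Of the members, 54 were within 10% of each other in treated libraries 1 and 2, against 12 to 36 between homozygous libraries and 9 to 11 between either of the pair and treated library 3.

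Other translation genes were read from lists. Over all tested genes, 0.965% were called lower and 3.44% higher, and 7.92% and 18.8% were at an unadjusted p under 0.05. Of 4 ribosomal proteins outside the naming rule none was called, with 2 at an unadjusted p under 0.05, and the one with the highest mean was Fau, made as a fusion with a ubiquitin-like part. Fau had 1067, 1446 and 1209 TPM against 1800, 1798 and 3176 TPM (log2 fold change 0.96, SE 0.32, limma adjusted p = 0.122). Of 16 other TOP messages 1 was called, higher: Eef2, the elongation factor of translocation, had 415, 507 and 438 TPM against 912, 842 and 929 TPM and rose with a log2 fold change of 1.00 (SE 0.19, adjusted p = 0.0410). Without any 1 homozygous library Eef2 was not called (adjusted p 0.0706 to 0.216), nor was it under both other scalings (0.0811 and 0.0555). Their median was 0.02. Of 37 translation factors 0 were called, with 6 lower and 4 higher at an unadjusted p under 0.05 and a median of -0.09, and the most abundant, Eif4a2 and Eif4g2, had fold changes of -0.46 and 0.24 (adjusted p = 0.168 and 0.580). Of 31 ribosome biogenesis genes 0 were called, with 4 lower and 3 higher unadjusted and a median of -0.03. Ncl, which encodes nucleolin, had 338, 264 and 265 TPM against 186, 191 and 138 TPM (-0.83, SE 0.22, adjusted p = 0.0759). Nop56 had a fold change of -0.15 (adjusted p = 0.850), which turned to 0.67 (adjusted p = 0.0491) without treated library 3.

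Of 17 genes of the mTOR pathway and other TOP regulators 1 was called, higher (3.44% of all tested genes were), with a median of 0.11. Rptor, the scaffold of mTOR complex 1, had 49.6, 49.3 and 49.1 TPM against 118, 90.8 and 90.4 TPM and rose with a log2 fold change of 0.96 (SE 0.17, limma adjusted p = 0.0384). Its call was lost without any 1 homozygous library (adjusted p 0.0847 to 0.192) and under both other scalings (0.0602 and 0.0526). Of 4 eIF2 kinases, which reduce initiation, Eif2ak2 was called. This kinase is activated by double-stranded RNA and induced by interferon. It had 27.5, 35.0 and 31.7 TPM against 114, 115 and 142 TPM, without overlap, and rose with a log2 fold change of 1.99 (SE 0.21, adjusted p = 0.00938). Without homozygous library 1 or 3 the adjusted p was 0.0695 and 0.0654.

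The comparison of homozygous with WT libraries asks what the nonsense allele changes. It could be made only in the first deposited table, a selected list of 1410 symbols in which 51.3% of the 1348 tested genes were called. That list held 0 of the 80 members, so their levels in WT were not analysed here and no member was tested for an effect of the allele.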

How the data were processed

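TPM values were deposited by the authors in a table of wild-type and homozygous and a table of homozygous and treated libraries. Per the submitters' processing notes, kallisto 0.51.0 and DESeq (no version given) were used with GRCm39. Repeated symbols were summed. Genes that reached 1 TPM in 3 or more libraries were tested on log2(TPM + 1) with limma 3.58.1 in R 4.3.3 (group means, mean-variance trend, two-sided, Benjamini-Hochberg adjustment over all tested genes, threshold 0.05). Fold changes are on that log2 scale, which understates changes of low genes. Errors are standard errors of the fit. Treated libraries 1 and 2 were averaged.

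Members and lists were chosen with earlier results of these data known. Named members were the 5 most abundant of each subunit, those past the threshold, the 3 largest and 3 smallest fold changes, the P stalk, paralogue pairs, genes near the limit and 8 of known role, and per list the 2 with the smallest p in each direction or else the highest mean. Rpl39l, Rpl10l and Rps4l were not analysed here, and results of some genes that the rule names are not reported here.

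Coding length, without the stop codon, came from 1 GENCODE transcript per gene and was known for 84.8% of tested genes and all members. The fit was tested on simulated data with 200 changed genes among 17102, in the treated against homozygous design. The fit recovered 89% of those changed by 1 on the log2 scale and 100% of those changed by 2, with 5 false among 194 calls. These shares describe the simulated data only. In the deposited values Rps27l and Rpl39 had fold changes of -2.14 and -2.10 (SE 1.08 and 0.84) and were not called. Recovery at the spread of the deposited treated samples was not tested.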

Additional observations from a re-analysis of the deposited data

How the results depend on the processing

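Counts of members called lower (2) and higher (2) ranged over 0 to 21 and 0 to 2 when 1 library was left out: without homozygous library 1 or 3 both were 0, without homozygous library 2 they were 0 and 2, and without treated library 3 they were 21 and 1, with 17.4% of all genes called in that fit. That fit leaves the treated group 1 sample, assumed to vary like the homozygous group. Of all tested genes, 0.368%, 1.07% and 0.409% were called without homozygous library 1, 2 and 3. Without treated library 2 the count of members called higher was 1 (4.36% of all tested genes were called in either direction). Counts called lower and higher were 0 and 0 with no filter on low values (0.524% of all genes called). These counts were 6 and 4 with a filter of 5 TPM (7.71% of all genes called). With treated libraries 1 and 2 as separate samples they were 16 and 6 (20.8%). Treated library 3 alone, an alternative added after seeing the data, leaves the treated group 1 sample, and no count of calls is given for it. The count called higher was 1 with a pseudocount of 0.1 (3.52% of all tested genes called in either direction). It was also 1 with median-of-ratios scaling (3.78%) and with TPM rescaled without mitochondrially encoded genes (3.74%). Among members of at least 100 TPM, whose number is not given here, 1 was called lower and 2 higher. In that fit 0.965% of all tested genes were called lower and 3.44% higher.

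The median fold change (-0.25) was -0.45 under median-of-ratios scaling, -0.38 without mitochondrially encoded genes, -0.0046 in treated library 3 alone and 0.16 among members of at least 100 TPM, and ranged from -0.41 to -0.17 with 1 library left out. These 2 scalings moved the median of all genes from 0.20 to 0.02 and 0.08 and turned the sign of 7 and 5 members. Members above every homozygous library (15) numbered 8 under median-of-ratios scaling, 36 in treated library 3 alone and 15 to 22 with 1 library left out. Those below (28) numbered 12 among members of at least 100 TPM and 28 to 48 with 1 left out, the highest without treated library 3. The shares of all tested genes above or below in these settings are not given here, so these counts cannot be set against them. With fewer samples, groups also fail to overlap more easily. The rank correlation of fold change with coding length (0.638) was 0.560 in treated library 3 alone and 0.534 among members of at least 100 TPM. It was 0.612 to 0.662 with 1 left out. The family's share of TPM (0.207 percentage points higher) differed by 0.00563 without mitochondrially encoded genes, and by -0.260 without treated library 3 to 0.319 without homozygous library 2. The count of members called between homozygous and WT libraries was 0 throughout, since the first table held none. Among the other translation genes named, Nop56 turned from -0.15 to 0.67 without treated library 3. Beyond these fewer samples or genes, the cause was not tested.

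Samples of the same number in both groups had correlations of deviations of 0.030, -0.146 and -0.117. Because treated libraries 1 and 2 were nearly identical, these values cannot tell whether the numbers pair the samples. No pairing was used in the main fit. A fit with the replicate number as a block, with treated libraries 1 and 2 as separate samples, called 9 members lower and 4 higher, with 8.68% of all genes called.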
